A study of Homo sapiens with 4 samples.

Results

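The 9 genes described here supply and police the deoxynucleotides from which DNA is made, or clear deoxyadenosine and adenosine: RRM1, RRM2, RRM2B, TYMS, TK1, DUT, DCK, DCTPP1 and ADA. They were chosen by name, and all 9 were found, at 1 row each, among the 16057 genes of the deposited expression table. MM.1S, an established human multiple myeloma line, received 350 nM JG342, which inhibits HSP70 chaperones allosterically, or the solvent DMSO alone, and RNA was sequenced after 26 h. Each group had 2 libraries, described as biological duplicates and numbered 1 and 2, of 1 cell line, so nothing here speaks to other myelomas. Values are in TPM, a unit that corrects reads for transcript length and sets every library to a fixed total. TPM values do not record the number of reads behind them, so the depth of each value is unknown and no counting interval can be given.

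Ribonucleotide reductase makes deoxynucleotides by reducing ribonucleotides, and is built from the large subunit RRM1 with a small subunit, either RRM2 or RRM2B. RRM2 is made in S phase and degraded later in the cycle, whereas RRM2B is a p53 target that serves DNA repair and mitochondrial DNA in cells that are not dividing. Thymidine nucleotides come from deoxyuridylate through TYMS or from thymidine through the kinases TK1 and TK2, and DUT and DCTPP1 remove deoxynucleotides that would otherwise be misincorporated or accumulate. DCK activates salvaged deoxynucleosides and many nucleoside drugs, and ADA removes adenosine and deoxyadenosine, the build-up of which is toxic to lymphoid cells. Many of these genes are known to be transcribed at the start of S phase under E2F factors, with CCAAT boxes bound by NF-Y in several of their promoters.

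The bases just before the start are shown for 5 of the genes with lower transcripts after JG342. These 5 were picked because the letters contain textbook elements of S phase promoters. The part of such elements in the changes after JG342 was not tested. Capitals mark CCAAT boxes (CCAAT, or ATTGG on the opposite strand) and 2 E2F-type words (TTTCCCGC, read as GCGGGAAA on the opposite strand, and TTTGGCGC). Where a gene had several annotated starts, the start with the most CCAAT and E2F-type matches is shown. Each sequence runs 5′ to 3′ on the gene's own strand and ends at the base before the start, from RefSeq on GRCh38.p14.
RRM2, chr2:10122609-10122738, plus strand: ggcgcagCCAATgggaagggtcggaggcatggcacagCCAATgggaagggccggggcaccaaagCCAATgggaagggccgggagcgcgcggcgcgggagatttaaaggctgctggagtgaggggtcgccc
TK1, chr17:78187053-78187152, minus strand: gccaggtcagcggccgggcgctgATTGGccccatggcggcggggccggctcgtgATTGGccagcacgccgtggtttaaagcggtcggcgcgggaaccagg
TYMS, chr18:657593-657652, plus strand: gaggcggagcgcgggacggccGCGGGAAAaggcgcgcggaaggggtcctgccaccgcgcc
DUT, chr15:48332137-48332196, plus strand: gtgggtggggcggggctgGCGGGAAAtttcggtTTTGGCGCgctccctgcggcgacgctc
RRM1, chr11:4094625-4094684, plus strand: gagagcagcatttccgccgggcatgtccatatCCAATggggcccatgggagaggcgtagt

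The windows searched ran from 250 bases before each start to 50 after it, and 8 of the 9 genes matched the RefSeq promoter table, with 13 windows between them. RRM2 held 3 CCAAT boxes in 1 window, beginning 123, 93 and 66 bases before the start, each followed by gggaaggg in the sequence above. TK1 held 2 on the opposite strand in 1 window and none in its other window, and RRM1 held 1. CCAAT is a frequent word: 34.6% of all 35116 windows held at least 1, 10.8% at least 2 and 3.26% at least 3. Any of 4 E2F-type words (TTTCCCGC, TTTGGCGC, TTTCGCGC and TTTGCCGC, both strands) occurred in 3.31% of all windows and in windows of TYMS, DUT and DCK. DUT held 2 of them in 1 of its 4 windows, as did 0.145% of all windows. The other windows of DUT held none, so the share per window understates how often a gene with several windows would match. DCTPP1 and ADA held none of these words, and none of the 8 genes held the ATF4-type word TGATGCAA, found in 0.866% of all windows. The CHR-type word TTTGAA, found in 15.2% of all windows, occurred in windows of RRM1 and DUT. The words do not overlap in these windows, and a match describes letters, not a bound site.

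Deoxynucleotide synthesis transcripts were lower after JG342 in 8 of the 9 genes, and RRM2 fell most, to 49.5% of its DMSO mean. The exception was RRM2B, the small subunit of non-dividing cells, which was higher in both JG342 libraries but did not pass the test. Genes were fitted where their mean over the libraries reached 1 TPM, and 18.4% of these 12042 passed the threshold (limma, Benjamini-Hochberg adjusted p under 0.05), 7.62% as lower and 10.8% as higher after JG342; after scaling the libraries to equal medians the split was 1200 lower and 966 higher, against 917 lower and 1304 higher without scaling. All 9 genes passed the filter on low values. Their median log2 fold change was −0.66, beside 0.03 over all fitted genes, on the log2(TPM + 1) scale. Both JG342 libraries lay below both DMSO libraries for the 8 genes that fell, a separation seen in 28.2% of all fitted genes, and above both for RRM2B, as in 34.0% of all fitted genes. Without DMSO replicate 2, fewer of the 9 genes passed as lower, as did fewer of all fitted genes. The median log2 fold change of the 9 was then −0.57. In bulk RNA, fewer cells in S phase and less transcript in each cell cannot be told apart.

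**Figure D1:**
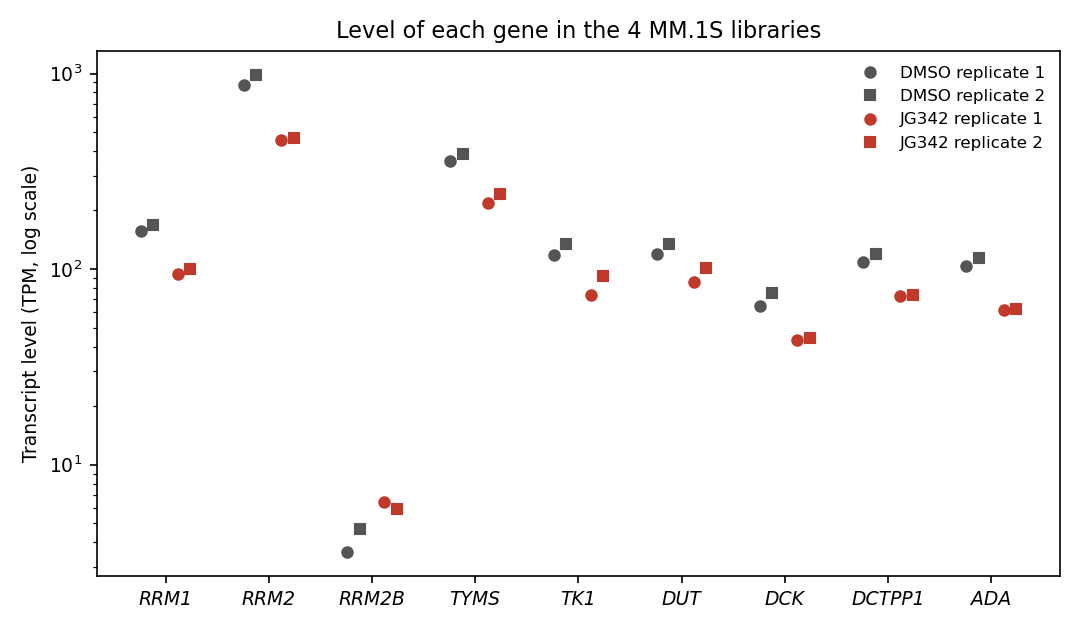
Level of each of the 9 genes in each library, in TPM on a log axis, with grey points for DMSO, red points for JG342, circles for replicate 1 and squares for replicate 2. The red points sit below the grey points for every gene except RRM2B, where they sit above, and RRM2B is far below the other genes in every library.

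The levels with DMSO spanned from RRM2 at 933 ± 77.2 TPM (SD, n = 2) to RRM2B at 4.14 ± 0.792 TPM. TYMS came next after RRM2, at 371 ± 21.6 TPM, followed by RRM1 at 162 ± 7.94 TPM, and each of these stood apart from its neighbours in the order in both libraries. DUT, TK1, DCTPP1 and ADA formed a group between 103 and 134 TPM. In this group DUT and TK1, at 127 ± 10.8 and 126 ± 11.8 TPM, did not differ beyond their spread, nor did DCTPP1 and ADA, at 114 ± 6.94 and 108 ± 7.47 TPM. DCK was lower, at 70.1 ± 7.14 TPM. With JG342 the order was the same at the top, while RRM1 and DUT came close, at 94.2 and 99.5 TPM against 85.7 and 101 TPM. Among the 12042 fitted genes, RRM2 ranked 150 and 137 from the top in the DMSO libraries, and 273 and 272 in those with JG342.

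Ribonucleotide reductase transcripts changed unequally. RRM2, the S phase small subunit, was measured, in the order of the replicate numbers, at 878 and 987 TPM with DMSO and at 458 and 466 TPM with JG342. The JG342 values lay close together and far under the lower DMSO value, and RRM2 fell by 1.01 ± 0.09 (log2 scale, with the SE; limma adjusted p 0.000357; 95% confidence interval −1.23 to −0.80). RRM2 shares 1077 exonic bases with the annotated gene AC007240.1 on the same strand, which was not analysed here. RRM2 stood at place 44 among the 12042 fitted genes ordered from the largest fall. RRM1, the large subunit that carries the catalytic and regulatory sites, stood at 157 and 168 TPM with DMSO and at 94.2 and 99.5 TPM with JG342. The groups did not overlap, and the log2 fold change of RRM1 was −0.74 ± 0.10 (limma adjusted p 0.00191). In same-numbered libraries the change of RRM1 was almost equal, −0.73 in pair 1 and −0.75 in pair 2, while that of RRM2 was −0.94 and −1.08.

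RRM2B, the p53-inducible small subunit, was listed at 3.58 and 4.70 TPM with DMSO and at 6.47 and 5.96 TPM with JG342. Both JG342 values were above both DMSO values, but the threshold was not reached (0.50 ± 0.18, limma adjusted p 0.0851; 95% confidence interval 0.09 to 0.90). It was 0.71 in pair 1 and 0.29 in pair 2. With the replicate number as a block it passed (limma adjusted p 0.0178; 34.9% of all fitted genes passed in that fit), and with the block and median scaling together it did not (limma adjusted p 0.0579). The log2(TPM + 1) scale understates the change of a gene at this level, and the JG342 mean was 150% of the DMSO mean in TPM.

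The balance of subunits within a library can be read from ratios of TPM. RRM2 transcripts outnumbered RRM1 transcripts by 5.60 and 5.88 to 1 with DMSO and by 4.86 and 4.68 to 1 with JG342, so the ratio was lower in both treated libraries. The ratio of RRM2B to RRM2 was 0.00408 and 0.00476 with DMSO and 0.0141 and 0.0128 with JG342. RRM2B thus remained a small minority of small-subunit transcripts, at a mean ratio to RRM2 that was 3.05 times that in DMSO. These ratios carry no test. With 2 libraries against 2, an exact two-sided permutation test cannot give a p below 0.333.

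**Figure D2:**
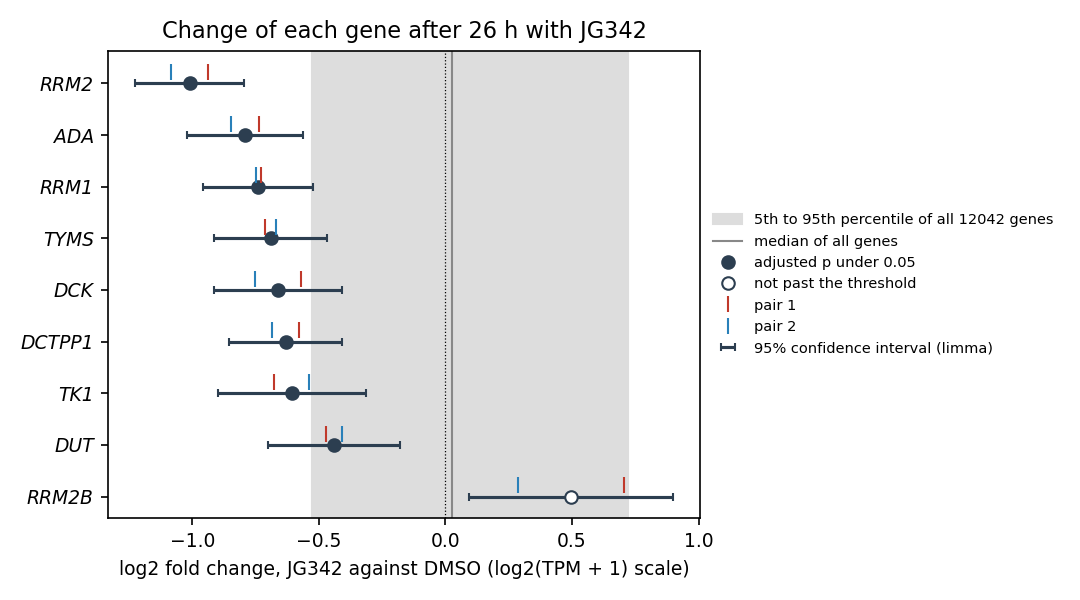
Log2 fold change of each gene, JG342 against DMSO, on the log2(TPM + 1) scale, with the 95% confidence interval from limma, filled where the adjusted p was under 0.05, and with small bars for the change within pair 1 and pair 2. The grey band holds the 5th to 95th percentile of all fitted genes, −0.53 to 0.72. The estimates of 7 genes lie to the left of the band, while DUT at −0.44 and RRM2B at 0.50 lie within it.

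TYMS, TK1 and DUT, which act in thymidine nucleotide supply, each fell. TYMS, which methylates deoxyuridylate to thymidylate and is the target of fluoropyrimidines, was at 356 and 386 TPM with DMSO and at 217 and 242 TPM with JG342. Both treated libraries were well below both controls, and TYMS fell by 0.69 ± 0.10 (limma adjusted p 0.00275). TYMS lies opposite ENOSF1, with which it shares 967 exonic bases in GENCODE release 29, and no source used here states whether strand was kept in counting. ENOSF1 was at 14.0 and 17.1 TPM with DMSO and at 26.3 and 30.0 TPM with JG342, a rise of 0.82 ± 0.14 (limma adjusted p 0.00633), opposite in direction to TYMS. With the TPM of both summed, the log2 difference was −0.58.

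TK1, the cytosolic thymidine kinase of S phase, was at 118 and 134 TPM with DMSO and at 73.4 and 92.1 TPM with JG342. The groups did not overlap, although JG342 replicate 2 was above JG342 replicate 1 by 25.6%. TK1 fell by 0.61 ± 0.13 (limma adjusted p 0.0135). Its call was lost without DMSO replicate 2 (−0.51, limma adjusted p 0.102) and without JG342 replicate 1 (−0.45, limma adjusted p 0.0503). It was also lost when no filter on low values was applied (limma adjusted p 0.0781; 5.16% of 16057 genes passed) and without the mean-variance trend (limma adjusted p 0.0515). The ratio of TYMS to TK1 was 3.02 and 2.87 with DMSO and 2.96 and 2.63 with JG342, and these overlapped.

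DUT, the dUTPase that keeps uracil out of DNA and yields deoxyuridylate for TYMS, changed least among the 8 genes. It was at 119 and 134 TPM with DMSO and at 85.7 and 101 TPM with JG342. The highest treated value was below the lowest control, and DUT fell by 0.44 ± 0.12 (limma adjusted p 0.0304), to 73.6% of the DMSO mean. The call was lost without DMSO replicate 1 (limma adjusted p 0.0612), without DMSO replicate 2 (limma adjusted p 0.198) and without JG342 replicate 1 (limma adjusted p 0.132), and also with no filter on low values (limma adjusted p 0.0979) or no mean-variance trend (limma adjusted p 0.0849). DUT encodes a nuclear and a mitochondrial enzyme from alternative first exons, and its single row does not separate them.

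DCK and DCTPP1 fell as well. DCK, which phosphorylates deoxycytidine, deoxyadenosine and deoxyguanosine and activates cytarabine and gemcitabine, was at 65.1 and 75.2 TPM with DMSO and at 43.5 and 44.2 TPM with JG342. The treated libraries agreed closely and lay below both controls, and DCK fell by 0.66 ± 0.11 (limma adjusted p 0.00563). Without DMSO replicate 2 it did not pass (−0.56, limma adjusted p 0.0552). DCTPP1, a pyrophosphatase that hydrolyses dCTP and its modified forms, was at 109 and 119 TPM with DMSO and at 72.6 and 73.6 TPM with JG342. Its groups were also apart, and it fell by 0.63 ± 0.10 (limma adjusted p 0.00407). DCTPP1 shares 666 exonic bases with ZNF771 on the opposite strand, and ZNF771 was at 4.36 to 6.49 TPM in all 4 libraries. The part of this overlap in the DCTPP1 values was not tested.

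ADA, which deaminates adenosine and deoxyadenosine and is lost in a severe combined immunodeficiency, had the largest fall after that of RRM2. It was at 103 and 114 TPM with DMSO and at 61.5 and 62.8 TPM with JG342. The treated values were close to each other and lay below both controls, and ADA fell by 0.79 ± 0.10 (limma adjusted p 0.00173), to 57.3% of the DMSO mean. The change was −0.74 in pair 1 and −0.85 in pair 2. RRM1, RRM2, TYMS, DCTPP1 and ADA passed as lower under every one of the 13 alternative settings.

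The 9 genes also shared a difference between the control libraries. DMSO replicate 2 exceeded DMSO replicate 1 in all 9, with a median log2 difference of 0.17, where 58.9% of all fitted genes were higher there, with a median of 0.04. With JG342, 8 of the 9 were higher in replicate 2, by a median of 0.03, against 43.3% of all fitted genes. DUT, with the smallest of the 8 called changes at −0.44, differed by 0.17 between its DMSO libraries and by 0.23 between its JG342 libraries. TK1, at −0.61, differed by 0.19 and 0.32. The part of these differences between replicates in the changes after JG342 was not tested.

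The other genes of the pathway were taken from 6 lists by role. Of their 49 genes, 48 were in the table and 46 were fitted. The threshold was passed by 34.8% of them, 6 higher and 10 lower after JG342, beside 18.4% of all fitted genes. Their median log2 fold change was −0.13. The other 30 did not pass. With the replicate block 10 were higher and 19 lower, in a fit where 34.9% of all fitted genes passed. Fewer of the pathway genes passed as lower without DMSO replicate 1 or without DMSO replicate 2. The same held for all fitted genes.

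Among partners of ribonucleotide reductase, 3 of 5 genes passed as lower and 1 as higher, beside 7.62% and 10.8% of all fitted genes. CCNF, the F-box protein that directs RRM2 to degradation in G2, fell by 0.88 ± 0.13, from 56.7 ± 8.19 to 30.3 ± 1.80 TPM (limma adjusted p 0.00304). TXNRD1, which recycles the thioredoxin that reduces the enzyme, fell by 0.51 ± 0.10, from 119 ± 9.28 to 82.9 ± 4.48 TPM (limma adjusted p 0.0115), a call lost without DMSO replicate 2 (limma adjusted p 0.100). AHCYL1, also known as IRBIT and described as a regulator of ribonucleotide reductase, rose by 0.70 ± 0.11, from 21.7 ± 0.431 to 35.9 ± 1.61 TPM (limma adjusted p 0.00486).

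Of the 6 other thymidylate and deoxyuridylate enzymes listed, 2 passed as higher, 2 passed as lower and 2 did not pass, with a median of 0.05. Of all fitted genes, 10.8% passed as higher and 7.62% as lower. DTYMK, which phosphorylates thymidylate, fell by 0.59 ± 0.13, from 53.2 ± 0.594 to 35.2 ± 5.58 TPM (limma adjusted p 0.0150). DTYMK did not pass without DMSO replicate 1 (limma adjusted p 0.0767), DMSO replicate 2 (limma adjusted p 0.0810) or JG342 replicate 1 (limma adjusted p 0.0608). TK2, the mitochondrial thymidine kinase, went the other way from TK1. It was at 13.1 and 12.6 TPM with DMSO and at 27.9 and 27.3 TPM with JG342, a rise of 1.05 ± 0.12 (limma adjusted p 0.00113), and the libraries of each group nearly coincided. The ratio of TK2 to TK1, chosen after its values were seen, was 0.111 and 0.0940 with DMSO and 0.380 and 0.296 with JG342. TYMP, which breaks thymidine down, rose by 0.95 ± 0.16, from 3.36 ± 0.0919 to 7.43 ± 0.106 TPM (limma adjusted p 0.00555).

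**Figure D3:**
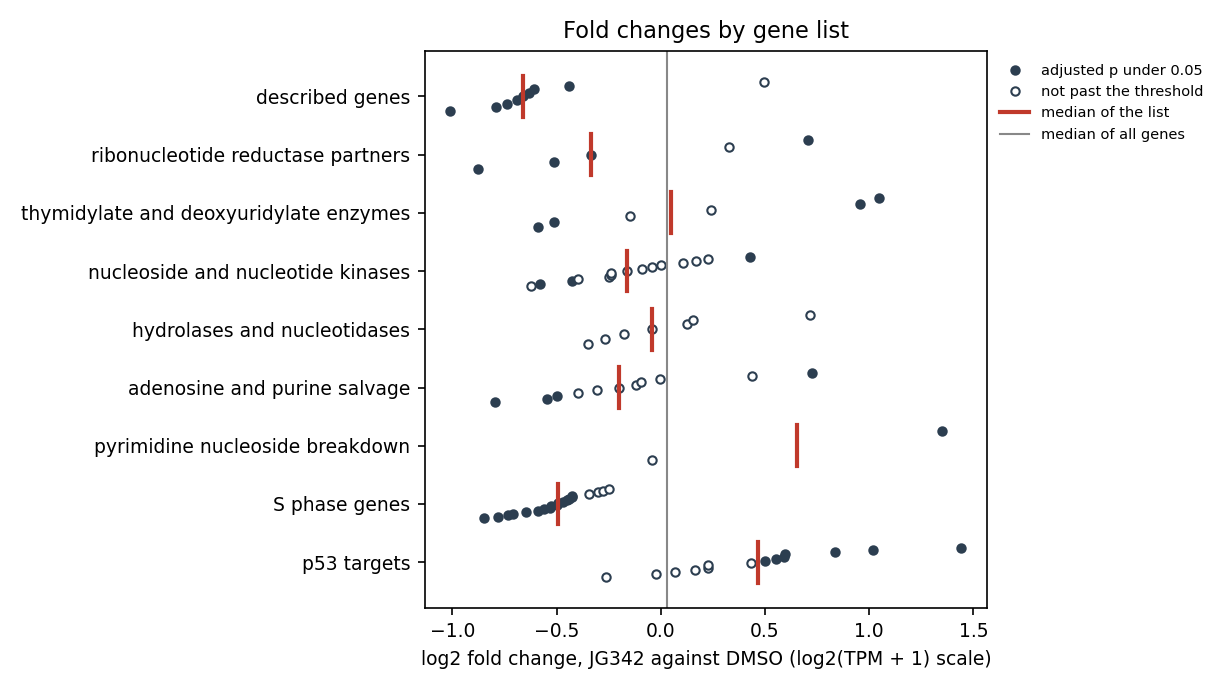
Log2 fold change, JG342 against DMSO on the log2(TPM + 1) scale, of each fitted gene in the 9 described genes and in 8 further lists, filled where the limma adjusted p was under 0.05, with the list median in red and the median of all fitted genes in grey. The described genes and the S phase genes lie mostly left of 0, with medians of −0.66 and −0.50, while the kinases and hydrolases lie around 0 and the p53 targets mostly to the right, with a median of 0.47.

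Of 15 fitted nucleoside and nucleotide kinases, 2 passed as lower, 1 passed as higher and 12 did not pass, with a median of −0.16. The 3 of 15 called are a share near the 18.4% of all fitted genes, and 7 of the 15 had an unadjusted limma p under 0.05. NME1, a nucleoside diphosphate kinase, fell by 0.58 ± 0.09, from 635 and 633 TPM with DMSO to 429 and 419 TPM with JG342 (limma adjusted p 0.00321). UCK2, a uridine and cytidine kinase, fell by 0.43 ± 0.11 (limma adjusted p 0.0273), and NME3 rose by 0.43 ± 0.11 (limma adjusted p 0.0320). Leaving out single libraries ended the calls of UCK2 (limma adjusted p 0.0942 without DMSO replicate 1, 0.161 without DMSO replicate 2 and 0.101 without JG342 replicate 2) and of NME3 (limma adjusted p 0.158, 0.114, 0.0706 and 0.0927 without DMSO replicates 1 and 2 and JG342 replicates 1 and 2). DGUOK, the mitochondrial deoxyguanosine kinase and a relative of DCK, was at 82.8 and 82.4 TPM with DMSO and at 89.4 and 96.6 TPM with JG342 and did not pass (0.17 ± 0.10, limma adjusted p 0.264). DGUOK was chosen after its values were seen. Of the 7 fitted hydrolases and nucleotidases, 0 passed by limma, 3 had an unadjusted p under 0.05, and the median was −0.04. The share of all fitted genes with an unadjusted limma p under 0.05 was not counted. Whether the unadjusted counts of both lists lie above or below that share is therefore unknown.

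Adenosine and purine salvage genes moved in both directions around ADA. Of 11 fitted genes, 3 passed as lower and 1 as higher, beside 7.62% and 10.8% of all fitted genes. The 1 of 11 called higher is a share near that of all fitted genes. PNP, which acts on the products of ADA, fell by 0.80 ± 0.11, from 59.4 ± 4.74 to 33.7 ± 0.693 TPM (limma adjusted p 0.00250), a change close in size to that of ADA. HPRT1, which salvages hypoxanthine and guanine, fell by 0.50 ± 0.10 (limma adjusted p 0.0103; 0.0927 without DMSO replicate 2). ADA2, a secreted adenosine deaminase, rose by 0.72 ± 0.15, from 48.4 ± 11.3 to 79.7 ± 4.34 TPM (limma adjusted p 0.0127; 0.0774 without DMSO replicate 2). The ratio of ADA2 to ADA, chosen after its values were seen, was 0.547 and 0.356 with DMSO and 1.35 and 1.22 with JG342. ADA transcripts were therefore the more abundant in both DMSO libraries and ADA2 transcripts in both JG342 libraries. In the list of pyrimidine nucleoside breakdown, UPP1, the uridine phosphorylase, rose by 1.35 ± 0.12, from 16.9 ± 0.820 to 44.7 ± 4.13 TPM (limma adjusted p 0.000309). DPYD, the other fitted gene of that list, did not pass (−0.04, limma adjusted p 0.863).

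**Figure D4:**
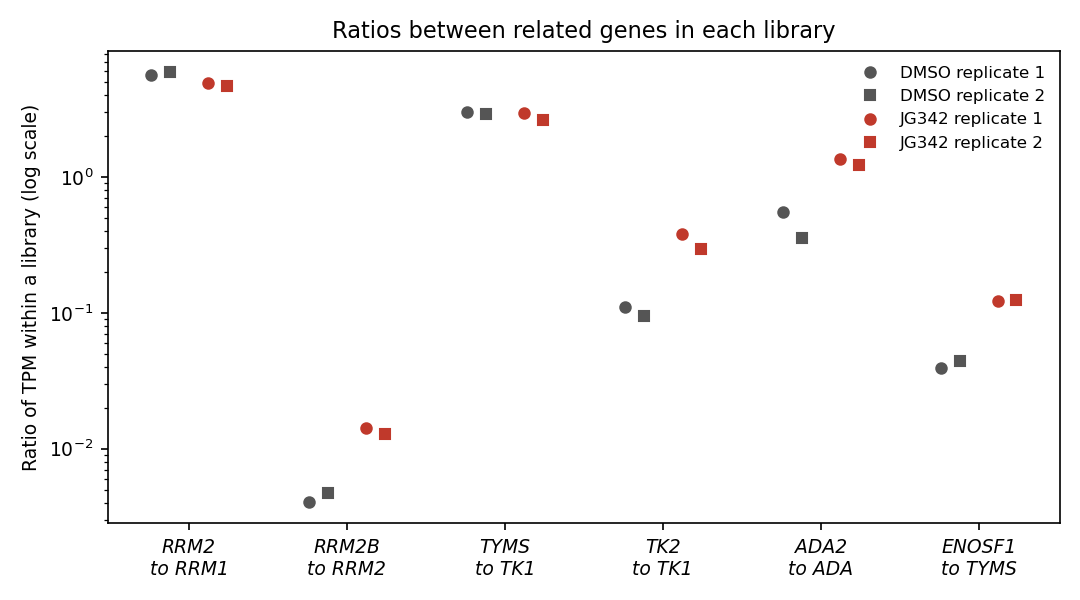
Ratio of TPM between related genes within each library, on a log axis, with grey for DMSO, red for JG342, circles for replicate 1 and squares for replicate 2. Of the ratios set in the design, the groups are apart for RRM2 to RRM1 and RRM2B to RRM2 and overlap for TYMS to TK1. The groups are also apart for TK2 to TK1, ADA2 to ADA and ENOSF1 to TYMS. These were paired after their values were seen, so their separation is only a description. The mean ratio with JG342 was 3.05 times that with DMSO for RRM2B to RRM2. It was 3.30 times for TK2 to TK1, 2.84 times for ADA2 to ADA and 2.93 times for ENOSF1 to TYMS.

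S phase genes were lower as well. All 20 listed genes had a fold change below 0, with a median of −0.50, and 16 passed as lower, beside 7.62% of all fitted genes. FEN1, the flap endonuclease, fell by 0.78 ± 0.09 (limma adjusted p 0.00116) and UHRF1, which maintains DNA methylation, by 0.85 ± 0.12 (limma adjusted p 0.00240). The fold change of RRM2 was beyond those of all 20, which ran from −0.85 to −0.25. The count of 16 fell to 8 without DMSO replicate 1, to 5 without DMSO replicate 2 and to 8 without JG342 replicate 1, while all genes called lower went from 917 to 397, 192 and 686.

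Beside RRM2B, the listed p53 targets were examined. Of 14 fitted, 7 rose, beside 10.8% of all fitted genes, and 7 did not pass, with a median of 0.47. Among those that did not pass were MDM2 (0.07), AEN (−0.02) and FAS (−0.26), chosen after their values were seen. The fold change was above 0 in 12 of the 14 and below 0 only in AEN and FAS. CCNG1, a cyclin induced by p53, rose by 0.84 ± 0.10, from 103 ± 3.98 to 184 ± 10.4 TPM (limma adjusted p 0.00107), and BBC3, which encodes the death effector PUMA, rose by 1.44 ± 0.19, from 7.38 ± 2.36 to 21.3 ± 0.198 TPM (limma adjusted p 0.00205). The count of 7 fell to 3 without DMSO replicate 1 and to 3 without DMSO replicate 2, while all genes called higher went from 1304 to 649 and 575. The part of p53 in the RRM2B values was not tested.

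The genes with the most similar profiles were sought among the 9805 genes averaging 5 TPM or more, by the Euclidean distance between the 4 log2(TPM + 1) values after each gene's mean was subtracted. Closest to RRM2 were FAM111B, ADM and MYB, at distances of 0.0876, 0.102 and 0.109. FAM111B, for instance, was at 179 and 194 TPM with DMSO and at 87.7 and 96.5 TPM with JG342. Closest to ADA were REEP1, FABP5 and TOB1, at 0.0324, 0.0409 and 0.0455, and closest to RRM2B were IL10, ZNF496 and TMEM198, at 0.0461, 0.0615 and 0.0671. With 4 libraries many genes share such a profile, and the distances are descriptions.

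The libraries carried transcripts of plasma cells, as the label of the line states. The 10 plasma cell markers, including SDC1, IRF4, XBP1 and JCHAIN, were all present, and their summed level was 14838 to 15116 TPM with DMSO and 10251 to 10940 TPM with JG342. The members did not move one way: IRF4 (0.77, limma adjusted p 0.000986) and PRDM1 (0.36, limma adjusted p 0.0410) rose, and JCHAIN (−0.86, limma adjusted p 0.00117) and TNFRSF17 (−0.44, limma adjusted p 0.0472) fell. JCHAIN holds most of the sum, at 9907 and 10383 TPM with DMSO and 5732 and 5431 TPM with JG342. Markers of T cells, monocytes, erythroid cells and fibroblasts summed to between 0.80 and 46.2 TPM per list and library, of which LYZ gave 37.0 to 46.2 TPM. Of the rest, HBB was at 7.34 to 11.4 TPM, CD3G at 3.99 to 9.34 TPM and CD3E at 3.21 to 7.70 TPM. Deposited totals were 994463 to 994718 TPM per library, and 1118 to 1418 of the 16057 genes were listed at 0.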

How the data were processed

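RNA of 4 MM.1S libraries was analysed from 1 table. The authors deposited TPM values, 1 per gene and library, each gene with a symbol and a RefSeq accession. The header names no unit, and it was read from the library totals. Per the submitters' processing notes, HISAT2 2.0.4, Bowtie2 2.2.5 and RSEM 1.2.12 were used, in roles not given. Build and annotation are not given in the sources used here.

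Values were taken as log2(TPM + 1), and 4015 genes whose mean was under 1 TPM were left out. JG342 was compared with DMSO by limma 3.58.1 in R 4.3.3 (lmFit, eBayes with trend), two-sided, with Benjamini-Hochberg adjustment over all 12042 genes and a threshold of 0.05. The fit had 2 residual and 6.89 prior degrees of freedom, and was tested on simulated data. There it recovered 96% of log2 changes of 1 and 62% of those of 0.6, and 5.95% of its calls were false. The simulated noise was drawn separately for each library, so differences shared by same-numbered libraries were left out. Labels of same-numbered libraries share a prefix, from which the pairing was taken, and their deviations from group means correlated at r = 0.27 across genes. The replicate block was an alternative, as were the pseudocount, the filter, scaling, the trend and each library left out.

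Members and lists were chosen with earlier results of these data known. Named beyond the members are, per list and direction, the 2 called genes with the smallest p, and the genes nearest in profile; 1 gene that this rule names is not reported here. ENOSF1, ZNF771, DGUOK, DPYD and the marker genes named were chosen after their values were seen. Promoters came from RefSeq (GRCh38.p14) and overlapping genes from GENCODE release 29. Beyond the overlaps given above, DCK shares 199 exonic bases with MOB1B on the same strand. On the opposite strand DUT shares 533 with AC023355.1 and TYMS 183 with TYMSOS. RRM1 shares 63 with RRM1-AS1 and ADA 46 with PKIG, also on the opposite strand. BLAST 2.17.0 found no near-identical transcript (95% identity over 20% of the length) of a gene that does not overlap a member.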

Additional observations from a re-analysis of the deposited data

How the results depend on the processing

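Under 13 alternatives no described gene changed direction. DUT and TK1 lost their calls at −0.44 and −0.61 both without the filter on low values and without the mean-variance trend. With the replicate block RRM2B passed at 0.50, and the block changed no other call of the 9 genes. The block left 1 residual degree of freedom and an infinite prior, so its p-values rest on the trend alone. All genes called were 2221, against 828 (533 higher, 295 lower) without the filter, 4207 (2316 and 1891) with the replicate block and 3985 (2310 lower) with the block and median scaling; 526 were lower without the trend. The pathway lists gave 10 higher and 19 lower with the replicate block, 19 lower with the block and median scaling, and 5 lower without the filter. S phase genes called lower were 6 without the filter and 8 without the trend, and p53 targets called higher were 2 and 4. TYMS gave −0.58 with ENOSF1 added, an alternative chosen after seeing the data.

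Leaving out 1 library at a time gave 767 to 1825 genes called (575 to 1107 higher, 192 to 718 lower), 5 to 8 of the 9 genes lower, and a median of −0.77 to −0.57 for them. Pathway genes called lower ranged from 3 to 10, S phase genes from 5 to 16 and p53 targets from 3 to 6. The log2 fold change ranged from −0.77 to −0.45 for TK1, from −0.56 to −0.32 for DUT and from −0.76 to −0.56 for DCK. The log2 ratio change of TYMS to TK1 ranged from −0.16 to 0.0046, and so changed sign. With 1 library left in a group, that library is assumed to vary like the others.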

Other observations

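Genes of mitochondrial DNA upkeep were listed after the rise of TK2 had been seen, so the list is a description. Of 16 genes, 1 passed as higher (TK2) and 1 as lower, or 12.5% in all beside 18.4% of all fitted genes, with a median log2 fold change of 0.03. The gene that fell was TFAM, which packages mitochondrial DNA, at 35.5 and 36.0 TPM with DMSO and at 26.3 and 24.4 TPM with JG342 (−0.48, limma adjusted p 0.0202). POLG, the mitochondrial DNA polymerase, was at 59.3 and 63.7 TPM with DMSO and at 56.4 and 52.0 TPM with JG342 and did not pass (−0.18, limma adjusted p 0.269). NT5M, the mitochondrial deoxyribonucleotidase, was at 7.39 and 4.14 TPM with DMSO and at 9.30 and 10.3 TPM with JG342 and did not pass (0.71, limma adjusted p 0.0575).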
